A study of Mus musculus with 23 samples.

Results

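The Tshz2 locus was taken as a window of mm9, chr2:169400000-169900000, and its members were the enriched regions of 2 histone marks that overlapped it. The window was chosen by its H3K27ac values: in an earlier pass over these lists it held the largest cluster of H3K27ac enhancer regions seen in retrosplenial cortex alone. The lead of that subregion in H3K27ac is therefore what selected the locus and is given as a description, with no test. In all, 278 of the 527177 regions in 16 deposited lists fell in the window. All groups were C57BL6J mice aged 56 postnatal days. RSC stands for retrosplenial cortex and ACC for anterior cingulate cortex, which are midline areas, and LEC and MEC for the lateral and the medial entorhinal cortex. By the labels, groups of the same mark differed by dissected subregion only, and no genotype or treatment is named for any group. Differences that the labels do not name cannot be seen here. Each subregion had 2 libraries per mark, except MEC H3K4me2 with 1, and each subregion and mark had 1 full list and 1 enhancer list. Libraries cannot be told apart within a list, so values have no replicate error, the depth behind them is unknown, and no comparison below has a test.

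Tshz2 encodes a zinc finger transcription factor of the teashirt family, which takes part in regional patterning during development. In the mouse cortex its transcript is used as a marker of deep-layer near-projecting excitatory neurons. H3K27ac, acetylation of lysine 27 of histone H3, marks active enhancers and promoters. H3K4me2, dimethylation of lysine 4, is found at such elements in their active and inactive states, so a site with H3K4me2 and without H3K27ac is often called primed. Each list comes from dissected bulk tissue, in which more cells of one type and more mark per cell cannot be told apart. The lists name no genes, so the labelled tissues could not be checked against markers.

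The gene name rests on the regions that were in the full lists and had been left out of the enhancer lists. These are called excluded regions here, since the rule that removed them is not given in the sources used. One of them was present in all 8 full lists, 4 subregions and 2 marks, and the stretch common to the 8 was chr2:169457951-169461650, 3700 bp long. This is where the start of Tshz2 is known to lie in mm9, but the gene table used here is for GRCm38.p6, so the placement was not checked by coordinates. That table puts Tshz2 on chromosome 2 between the protein-coding genes Zfp64 and Zfp217. RefSeq gives Tshz2 on the + strand, so positions to the right of the common stretch lie downstream of such a start.

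The sequence just before the annotated start is shown because the locus is named from an excluded region taken to lie at the promoter. That placement was not checked by coordinates, and the sequence was not placed within the mm9 stretch. The sequence is the 250 bases before the start in the single RefSeq entry for Tshz2 (GRCm38.p6, + strand), written 5′ to 3′. Capitals mark 1 match to the GC box, GGGCGG on the opposite strand, and 1 match to CCAAT.
Tshz2: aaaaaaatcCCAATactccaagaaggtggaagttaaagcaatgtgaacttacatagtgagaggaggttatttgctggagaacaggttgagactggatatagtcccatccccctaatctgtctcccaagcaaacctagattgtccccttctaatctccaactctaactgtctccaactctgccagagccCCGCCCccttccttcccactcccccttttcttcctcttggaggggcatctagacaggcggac
Searched on both strands, GGGCGG occurs in 32.7% of the 32851 RefSeq promoters cut to the same 250 bases, and CCAAT in 33.8%. The TATA box letters TATAAA do not occur in this stretch and are found in 12.4% of the promoters. The GC box match begins 62 bases before the start. The stretch holds 2 CpG dinucleotides, against a median of 6, and 81.2% of the promoters hold 2 or more. These matches are a description of the letters and not of factor binding.

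The excluded region at this site was widest in RSC for both marks. In H3K27ac it spanned 16.2 kb in RSC (chr2:169456476-169472650), 10.2 kb in MEC, 6.65 kb in LEC and 4.6 kb in ACC. H3K4me2 came from other libraries than those that chose the window, but the sample titles number both marks alike, so they may share tissue samples. In H3K4me2 the region spanned 12.6 kb in RSC (chr2:169456501-169469075), 7.08 kb in LEC, 5.25 kb in ACC and 4.05 kb in MEC. The regions began close together and ended far apart: the 8 starts lay within 1475 bp, and the 8 ends were spread over 11.0 kb, from 169461650 to 169472650. The RSC regions reached farthest downstream in both marks. In H3K4me2 the mark was nonetheless listed in all 4 subregions over part of that extension: LEC (chr2:169466126-169468100), ACC (chr2:169466426-169468050) and MEC (chr2:169466726-169467500) had separate enhancer regions inside the single RSC region.

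**Figure D1:**
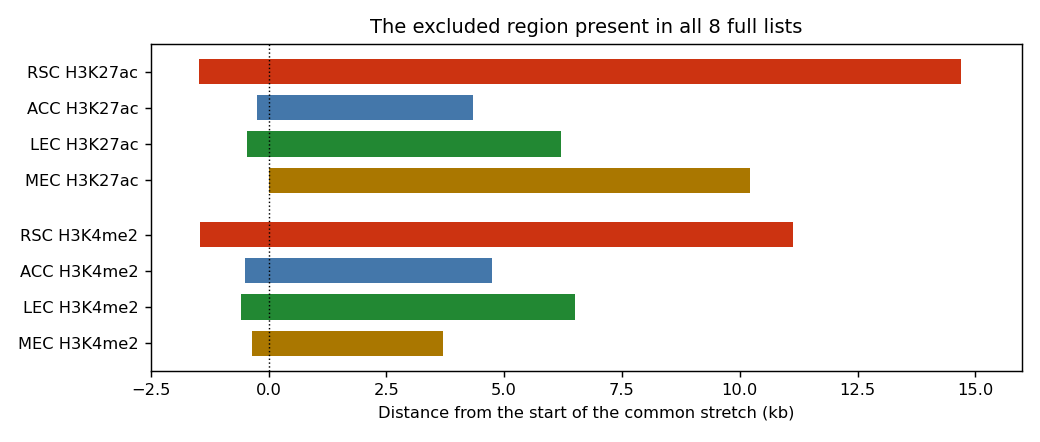
Extent of the excluded region found in all 8 full lists, as distance in kb from the start of the stretch common to them; each bar is 1 list, coloured by subregion. The left ends lie within 1475 bp, and the RSC bars are the longest, at 16.2 kb for H3K27ac and 12.6 kb for H3K4me2.

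Within its own list, the width of this region was unusual in RSC and not in ACC. Of the 17312 excluded H3K27ac regions of RSC, 2.87% were as wide or wider, and of the 17877 excluded H3K4me2 regions 2.43% were. The same shares were 31.9% and 27.4% in ACC, 15.3% and 14.3% in LEC, and 2.04% and 17.4% in MEC, H3K27ac first. Width in MEC therefore stood out in H3K27ac alone. The next excluded region shared by all 8 lists, beyond the right edge of the window, gave another order. There RSC spanned 4.33 kb in H3K27ac, against 5.97 kb in ACC, 4.6 kb in LEC and 1.5 kb in MEC. In H3K4me2 it spanned 5.83 kb in RSC, 7.88 kb in ACC, 7.60 kb in LEC and 5.28 kb in MEC, so RSC was not the widest at that site in either mark.

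Further downstream the window held 2 smaller groups of excluded regions. The first, with a common stretch at chr2:169616126-169616975, was found in 5 lists: H3K27ac of ACC and RSC, and H3K4me2 of ACC, RSC and MEC. Its widest member, RSC H3K4me2, was 1925 bp. LEC had it in neither mark. The second, with a common stretch at chr2:169786926-169787850, was found in 7 lists and was absent from MEC H3K27ac. Its widest member was LEC H3K27ac at 2675 bp, and RSC measured 1525 bp in H3K27ac and 1775 bp in H3K4me2. RSC did not stand apart in width at the second group.

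H3K27ac enhancer regions were far more numerous in RSC than elsewhere, while H3K4me2 regions were not. RSC had 29 H3K27ac enhancer regions in the window, LEC 11, ACC 9 and MEC 5. They covered 97.2 kb in RSC, 25.1 kb in LEC, 12.7 kb in ACC and 9.12 kb in MEC, which is 19.4% of the window in RSC and 1.82% to 5.01% in the others. RSC covered 3.88 times as many bases as LEC, 7.69 times as many as ACC and 10.7 times as many as MEC, or 6.03 times as many as MEC with full lists. In H3K4me2, LEC had 24 enhancer regions, RSC 22, ACC 19 and MEC 10. These covered 47.1 kb in LEC, 38.3 kb in RSC, 27.8 kb in ACC and 8.95 kb in MEC. In this mark LEC, not RSC, led in regions and in bases. The lead was small with full lists, which count the wide excluded region of RSC. There LEC had 26 regions covering 56.4 kb and RSC 25 covering 54.5 kb.

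**Figure D2:**
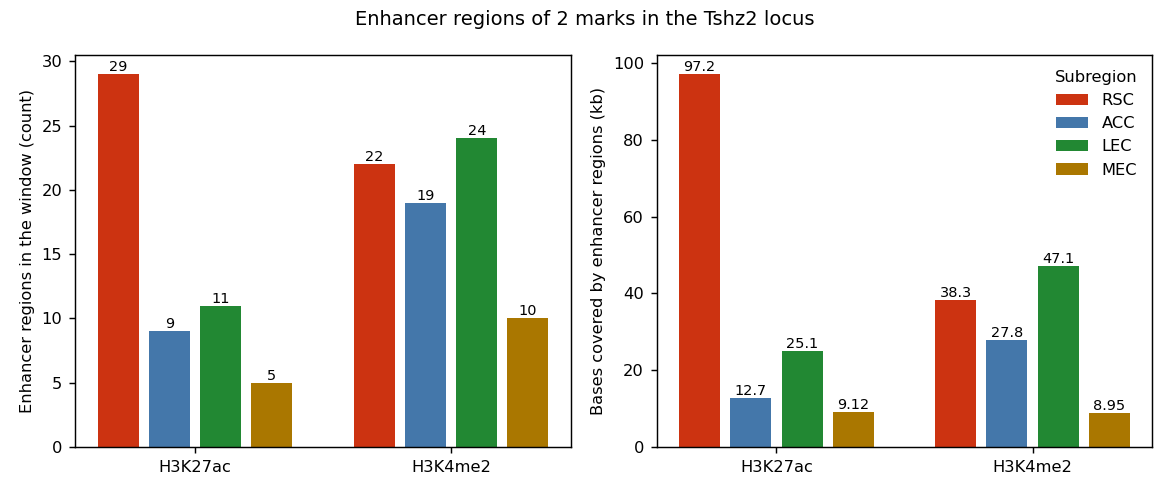
Enhancer regions in the window (left, count) and the bases they cover (right, kb) for H3K27ac and H3K4me2; each bar is 1 deposited list, with no replicate error. RSC leads in H3K27ac with 29 regions and 97.2 kb, and LEC leads in H3K4me2 with 24 regions and 47.1 kb.

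Lists differed in length, which alone moves such counts. Per 1000 regions of its own list, RSC placed 1.19 H3K27ac enhancer regions in the window, LEC 0.479, MEC 0.457 and ACC 0.322. On this scale RSC was 2.50 times LEC, 2.62 times MEC and 3.71 times ACC. For H3K4me2 the values lay closer together, at 0.824 in LEC, 0.767 in RSC, 0.665 in MEC and 0.556 in ACC. MEC was thus near LEC in H3K27ac once the shorter list was allowed for. RSC regions here were also wider than usual for their list, with a median of 2700 bp against 2075 bp over all RSC H3K27ac enhancer regions. ACC, LEC and MEC went the other way, with medians of 1175, 1875 and 1625 bp in the window against 2075, 2200 and 2100 bp in their whole lists.

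Of the 29 RSC H3K27ac enhancer regions, 16 overlapped no H3K27ac enhancer region of another subregion. Over the whole RSC list 20.4% of regions did so; since the rule used this contrast, nothing is read from the difference. ACC had 1 such region of 9 (22.9% over its list), LEC 1 of 11 (20.2%) and MEC 0 of 5 (20.0%). None of the 16 RSC-only regions overlapped a full-list H3K27ac region of another subregion. The same share over all RSC-only regions of the genome was not computed, so nothing is read from this count. In width, the 16 RSC-only regions had a median of 1837.5 bp and the 13 shared RSC regions 3550 bp. Over the genome RSC-only regions were narrow too, with a median of 1325 bp against 2075 bp for all RSC H3K27ac enhancer regions. Being narrower than shared regions is therefore not particular to the locus, and the median of the 16 was above that of RSC-only regions over the genome. The 16 ranged from 1075 to 5525 bp. The widest was chr2:169481701-169487225 (5525 bp), which carried no H3K4me2 enhancer region of any subregion. The next was chr2:169558751-169562800 (4050 bp), which carried H3K4me2 in RSC, ACC and LEC. The third was chr2:169582426-169585200 (2775 bp), again with no H3K4me2.

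The single ACC-only region, chr2:169467026-169467800, lay inside the wide excluded region of RSC and that of MEC, so it was not a site of ACC acetylation alone. The LEC-only region, chr2:169446476-169447500, overlapped no full-list H3K27ac region elsewhere. It carried H3K4me2 enhancer regions in all 4 subregions.

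Along the locus, the RSC regions formed a dense run downstream of the common excluded stretch. With gaps of up to 30 kb allowed, a distance set after the positions were seen, 25 of the 29 regions fell in chr2:169481701-169701125, a span of 219 kb. The gaps inside this run had a median of 3787.5 bp, and the longest was 29150 bp. RSC H3K27ac covered 40.1% of the span (88.0 kb), against 5.81% in LEC, 3.33% in ACC and 2.73% in MEC. H3K4me2 covered 10.6% of it in RSC, 11.2% in LEC, 6.11% in ACC and 1.03% in MEC. The span was drawn from the RSC H3K27ac positions, so the high RSC H3K27ac coverage inside it is built in. In H3K4me2, RSC and LEC covered nearly the same share of it.

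Of the 16 RSC-only regions, 15 lay in this run, and the other was chr2:169431926-169434400, to the left of the common excluded stretch. Coverage was uneven within the run. In steps of 50 kb from the left edge of the window, RSC H3K27ac enhancer regions covered 5.88 and 9.0 kb in the first and second steps. They covered 29.5 kb in the third, 15.3 kb in the fourth, 6.40 kb in the fifth and 26.6 kb in the sixth. The remaining 4 steps held 1.13, 2.10, 1.30 and 0 kb. In the fourth step no other subregion had a region centred there, and RSC had 6. In the eighth and the ninth steps LEC, at 2.33 and 6.12 kb, covered more than RSC, so the RSC lead did not extend over the whole window.

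**Figure D3:**
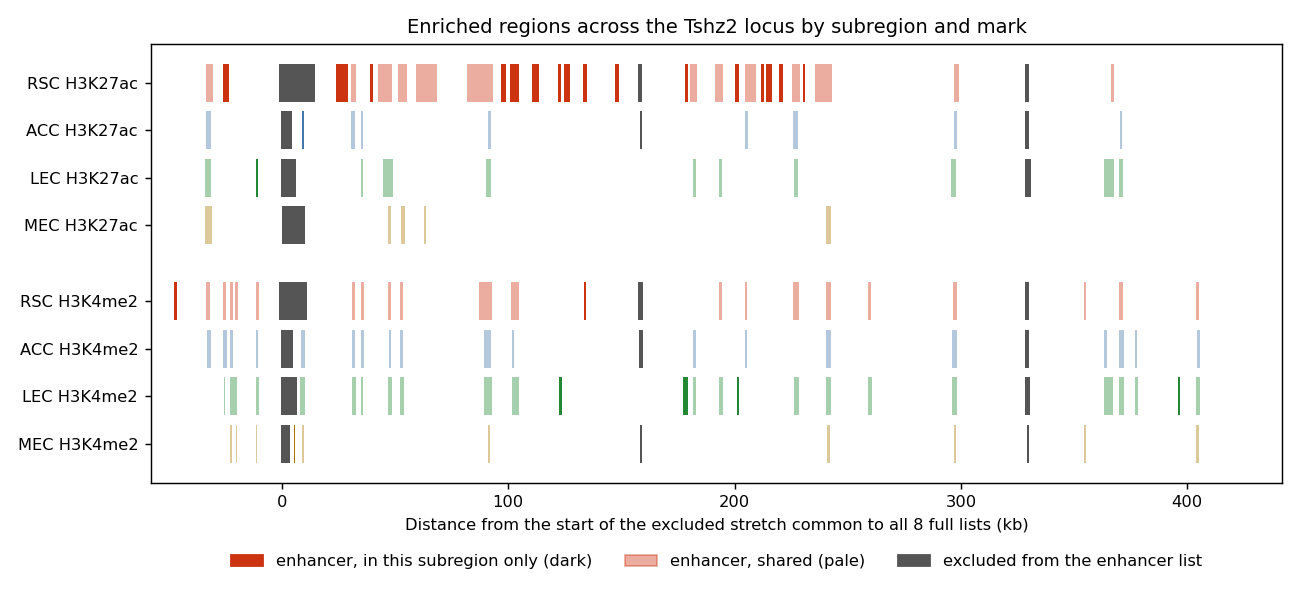
Map of the window, with distance in kb from the start of the common excluded stretch; each row is 1 subregion and mark, coloured bars are enhancer regions (dark where no other subregion has an overlapping one of that mark, pale where shared) and grey bars are excluded regions. RSC H3K27ac holds 16 dark bars, 15 of them in the run downstream of the common stretch, and RSC H3K4me2 holds 2.

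**Figure D4:**
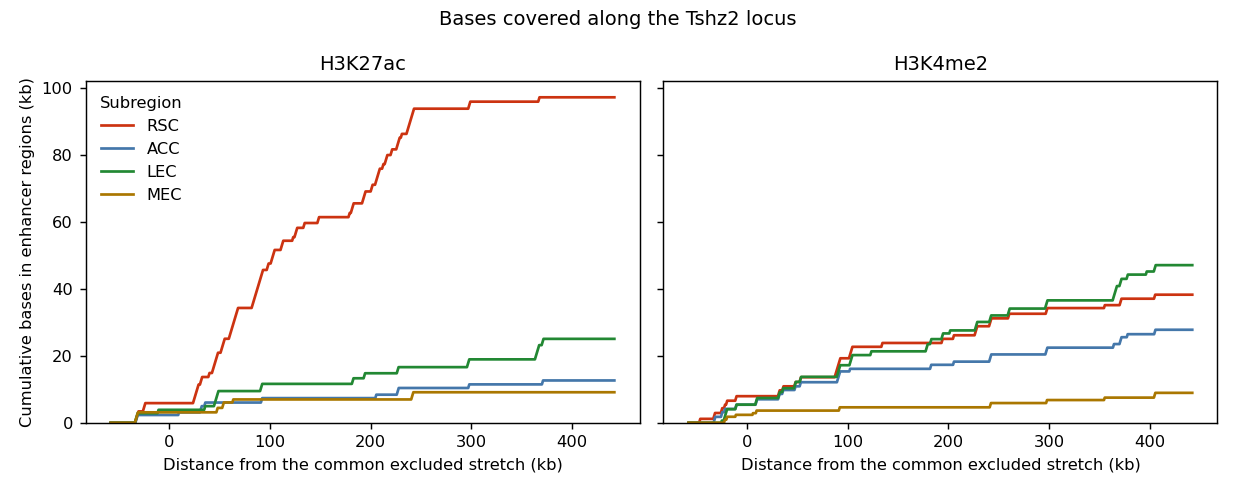
Cumulative bases covered by enhancer regions (kb) against distance (kb) from the start of the common excluded stretch, for H3K27ac (left) and H3K4me2 (right), with 1 line per subregion. RSC climbs to 97.2 kb in H3K27ac, mostly within the run, while RSC and LEC rise side by side in H3K4me2 to 38.3 and 47.1 kb.

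The regions that were 10 kb or wider were all RSC regions but 1. In H3K27ac, RSC had the enhancer region chr2:169539876-169551225 (11350 bp), besides its excluded region of 16175 bp, and MEC had its excluded region of 10225 bp. In H3K4me2 the excluded region of RSC, at 12575 bp, was the only one. The enhancer region of 11350 bp overlapped narrower H3K27ac regions of ACC (1325 bp) and LEC (2150 bp) and none of MEC. H3K4me2 was listed there in all 4 subregions, at 5650 bp in RSC, 3475 bp in LEC, 3225 bp in ACC and 975 bp in MEC. RSC had the widest region at this site in both marks.

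Most H3K27ac regions of the other subregions fell where RSC also had one. The RSC list overlapped 6 of 9 in ACC, against 57.8% over the whole ACC list, 8 of 11 in LEC (55.5% over the list) and 5 of 5 in MEC (67.0% over the list). These counts are small. Each lies above the share of its list, most of all in MEC, and nothing is read from them. By bases, RSC regions held 97.5% of the MEC, 75.9% of the ACC and 63.0% of the LEC coverage in the window, against 63.0%, 55.2% and 52.4% over the whole lists. Those lists held 9.15%, 9.87% and 16.3% of the RSC coverage in the window, in the same order, against 27.3%, 65.2% and 51.4% over the whole lists. The wide RSC coverage that chose the window raises the former shares and lowers the latter. ACC and LEC shared 29.9% of the bases in either of them, the highest of the 6 pairs in the window. ACC and RSC shared 9.57%, where their whole lists shared 42.6%.

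In H3K4me2 the subregions resembled each other at least as much as over the genome. Here ACC and RSC shared 49.0% of the bases in either, RSC and LEC 47.8%, and ACC and LEC 46.9%, against 43.2%, 39.7% and 44.7% over the whole lists. The RSC list overlapped 15 of 19 ACC regions (58.8% over the list), 16 of 24 LEC regions (59.1%) and 8 of 10 MEC regions (53.7%). Regions of a single subregion were few. RSC had 2 of 22 (16.1% over its list), LEC 4 of 24 (16.2%), MEC 1 of 10 (32.6%) and ACC 0 of 19 (20.8%). The MEC-only region, chr2:169463376-169463875, lay inside the excluded H3K4me2 regions of RSC and LEC, so it was not a site of MEC alone. The RSC and LEC shares are close to or below those of their lists, so an excess of RSC-only sites was not seen in this mark.

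Merged into elements wherever regions overlapped, the H3K27ac regions gave 33 elements and the H3K4me2 regions 30. A single H3K27ac element was carried by all 4 subregions, against 9.72% of 42115 elements over the genome. It was chr2:169423901-169427625, to the left of the common excluded stretch. In H3K4me2 there were 6 carried by all 4, against 9.91% of 52088 elements: chr2:169434826-169438350, chr2:169446276-169447650, chr2:169545001-169550650, chr2:169698251-169700600, chr2:169753826-169756275 and chr2:169861801-169863700. Only the first 2 of these lie to the left of the common excluded stretch. H3K27ac and H3K4me2 did not share their common sites: at the H3K27ac element common to all, H3K4me2 enhancer regions were listed in ACC and RSC alone.

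The marks were then compared within each subregion. In RSC, 13 of 29 H3K27ac enhancer regions overlapped an RSC H3K4me2 enhancer region, or 44.8% (95% Wilson interval 28.4 to 62.5), against 53.7% over the whole list. In ACC it was 8 of 9 (61.0% over the list), in LEC 10 of 11 (60.5%) and in MEC 1 of 5 (34.3%). The intervals were 56.5 to 98.0 in ACC, 62.3 to 98.4 in LEC and 3.62 to 62.4 in MEC. The LEC interval lies above the share of its list, and those of RSC, ACC and MEC include theirs. With full lists, 16 of the 32 RSC H3K27ac regions carried RSC H3K4me2, and the same share over the whole full list was not computed. These shares rest on few neighbouring regions of a window chosen by H3K27ac. The intervals cover counting error only and treat those regions as independent, so they are a description and not a test.

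RSC-only and shared sites differed in H3K4me2 at the locus as they did over the genome. Of the 16 RSC-only regions, 3 overlapped an RSC H3K4me2 enhancer region, against 27.7% of all RSC-only regions of the genome. Only 1, chr2:169591151-169592600, carried H3K4me2 of RSC and of no other subregion (9.70% over the genome). Of the 13 shared regions 10 carried RSC H3K4me2 (60.3% of shared RSC regions over the genome). With any subregion counted, 6 of the 16 carried H3K4me2 (38.8% over the genome) and 12 of the 13 (79.3%). Against the full lists of both marks, 11 of the 16 overlapped nothing in ACC, LEC or MEC (58.9% over the genome). The shares of the 16 are near the genome background, so they do not set these sites apart from other RSC-only sites.

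At 3 RSC-only sites the marks came from different subregions. These regions, chr2:169580126-169581200, chr2:169636026-169637275 and chr2:169658051-169660050, carried H3K27ac in RSC alone and H3K4me2 in LEC alone. Over the genome 11.1% of RSC-only regions carried H3K4me2 elsewhere and not in RSC. The 3 LEC regions at these sites were chr2:169580351-169581475, chr2:169635251-169637400 and chr2:169658826-169659725, and they are 3 of the 4 LEC-only H3K4me2 regions in the window. The other, chr2:169853901-169854825, had no H3K27ac in any subregion.

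Seen from H3K4me2, sites of ACC and LEC met RSC acetylation more often than their own, in a window chosen for its RSC acetylation. Of the 19 ACC H3K4me2 enhancer regions, 8 overlapped ACC H3K27ac and 11 overlapped RSC H3K27ac. Of the 24 LEC regions, 10 overlapped LEC H3K27ac and 15 overlapped RSC H3K27ac. Over the whole ACC and LEC lists the order was the reverse, with 53.1% of ACC regions overlapping ACC and 41.3% overlapping RSC H3K27ac, and 50.4% and 40.1% for LEC. In MEC 1 of 10 overlapped MEC and 3 of 10 RSC H3K27ac, which is the order of the whole MEC list, with 26.2% and 38.5%. In RSC 13 of 22 overlapped RSC H3K27ac (48.4% over the list). RSC H3K27ac covered the most bases in this window, which was chosen for it, and this raises every overlap with it. The part of this in the result was not tested, so nothing is read from the order.

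The window was set against all 4687 windows of 500 kb on the same grid. That grid was aligned to the chosen window, so the locus was kept whole while clusters elsewhere may be cut. RSC H3K27ac enhancer regions covered 97.2 kb here, against a median of 7.80 kb, and ranked 39 among the windows. The lead of RSC over the next subregion, 72.2 kb, ranked 1, which the choice of the window and the aligned grid make likely. In ACC the H3K27ac coverage of 12.7 kb ranked 1974 (median 8.95 kb), in LEC 25.1 kb ranked 904 (median 7.0 kb) and in MEC 9.12 kb ranked 1013 (median 2.20 kb). H3K4me2 coverage was high in all 4 subregions, with ranks of 148 in LEC, 207 in RSC, 268 in MEC and 865 in ACC. With enhancer lists, RSC trailed LEC by 8.82 kb in this mark. RSC covered more H3K4me2 bases than any other subregion in 20.1% of all windows. Among the 33 windows with an RSC H3K27ac lead of 20 kb or more, a limit set after the values were seen, RSC also led in H3K4me2 in 17, and this locus was not among them.

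**Figure D5:**
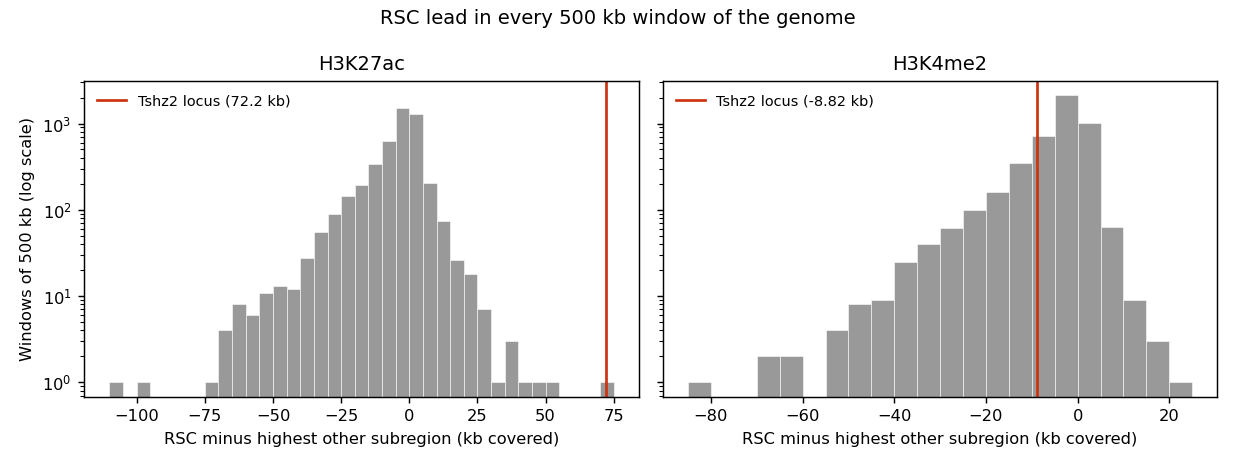
Bases covered in RSC minus those in the highest other subregion (kb) in each of 4687 windows of 500 kb, as a histogram with a log count axis, for H3K27ac (left) and H3K4me2 (right); the red line marks the Tshz2 locus. The locus is the last bar in H3K27ac at 72.2 kb and lies at -8.82 kb in H3K4me2.

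The neighbouring window on the left, chr2:168900000-169399999, had the second largest RSC lead in H3K27ac, at 54.5 kb. RSC covered 63.0 kb there with 10 regions, 27075 bp of it in chr2:168960376-168987450, and ACC covered 8.50 kb. This was a separate block. The nearest RSC H3K27ac region to the left of the locus ended at 169188000, which is 212000 bp from the window, and the first inside began at 169424226. The window on the right, chr2:169900000-170399999, had no such lead, with 15.2 kb in RSC against 24.6 kb in ACC and 21.5 kb in LEC. At the edges, the last RSC H3K27ac region inside was chr2:169824401-169825700, and the first outside was the excluded region chr2:169955401-169959725.

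The 3 windows most like this one over the 8 enhancer lists, by Bray-Curtis dissimilarity of the bases covered (0 for equal values), were chr1:178900000-179399999 at 0.191, chr5:74400000-74899999 at 0.192 and chr1:39900000-40399999 at 0.202. RSC also led in H3K27ac in each of these, by 17.6, 12.4 and 24.2 kb, which is well under the lead at the Tshz2 locus. Likeness was measured over 8 values, of which RSC H3K27ac is the largest here, so an RSC lead in the windows most alike is partly built in. Likeness says nothing of shared control.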

How the data were processed

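H3K27ac and H3K4me2 were profiled by chromatin immunoprecipitation and sequencing in dissected, snap-frozen tissue of 4 cortical subregions (23 samples, inputs included). The authors worked in mm9 with Bowtie 1.1.1 and bedtools 2.19.0 among their tools, per the submitters' processing notes. The sources used here do not state how peaks were called or how libraries were joined into 1 list. The lists are named as reproducible regions, also that of MEC H3K4me2 with 1 library in the labels. How this was judged is not stated. The deposited files hold start and end positions of enriched regions. The score the authors deposited equals the region width in every list that has one (0 exceptions) and was not used. Of 17 files, 1 repeats the MEC H3K27ac enhancer list and was left out.

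Positions are 1-based. Regions overlapping the window by at least 1 bp were counted with Python 3.11.15. A region was called subregion-only when it overlapped no region of the same mark and list kind in the other 3 subregions; shares over whole lists serve as background. Covered bases were clipped to the window. Intervals (scipy 1.17.1) are Wilson 95%. Overlap and merging code was tested on simulated data. Unplaced sequences ("random") were left out of the genome-wide windows. The locus, the lists compared and the rule for named regions were chosen with earlier results of these data known. That rule named all excluded regions, elements carried by 4 subregions, the 3 widest RSC-only regions, regions of at least 10 kb and the 3 most alike windows; other regions named were chosen after their values were seen. Sequences of mm9 regions were not analysed here.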

Additional observations from a re-analysis of the deposited data

How the results depend on the processing

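No paired analysis was possible because the lists hold no values per library, and for the same reason no library could be left out. Depth limits every count by an unknown amount, and MEC H3K4me2 rests on 1 library. Of 89 values under other settings, 68 stayed within 1.5 times the reported one. RSC led in H3K27ac regions and bases under every width, list and window setting run, and LEC led in H3K4me2 bases; in H3K4me2 regions RSC and LEC tied at 21 each among those of 1000 bp or wider.

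With the window 100 kb shorter at each end, H3K27ac regions fell to 4 in ACC and 6 in LEC. Their coverage became 5.42 kb in ACC, 14.0 kb in LEC and 6.0 kb in MEC. LEC had 13 H3K4me2 regions (26.2 kb), RSC 11 (23.4 kb, 1 of them RSC-only), ACC 8 (12.7 kb) and MEC 3 (3.15 kb). With full lists, H3K27ac covered 19.6 kb in ACC and 19.4 kb in MEC, and H3K4me2 covered 15.2 kb in MEC. With regions of 1000 bp or wider, MEC kept 2 H3K4me2 regions (2.70 kb). With 50% of the region required, 7 RSC H3K27ac regions carried RSC H3K4me2. The RSC H3K27ac lead was 82.2 kb with full lists. On a grid moved by 250 kb, chosen after seeing the data, it was 53.1 kb in the left and 12.7 kb in the right window. No ranks are given for the moved grid. The shorter windows and wider regions hold fewer regions by construction.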
